A study of Mus musculus with 6 samples.

Results

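The genes described here encode the receptors of the PDGF, VEGF and KIT families that mark cardiac and vascular progenitors, together with their ligands. They were chosen by symbol: *Pdgfra*, *Pdgfrb*, *Kdr*, *Flt1* and *Kit* among the receptors, and *Pdgfa*, *Pdgfb*, *Pdgfc*, *Vegfa* and *Vegfc* among the ligands, 10 of the 16279 genes listed for either cell type. Bulk RNA-seq was done on mouse embryonic stem cells (mESCs) and on cardiac precursor cell cultures (CPCCs), with 3 libraries of each. The mESCs were male F1 cells of a C57BL/6J mother (C57BL/6 in the labels) and a CAST/EiJ father, kept without feeders on gelatin in serum with LIF, the MEK inhibitor PD0325901 and the GSK3 inhibitor CHIR99021. CPCCs were of the same cross and sex and were derived from these mESCs. Hanging drops formed embryoid bodies, which were held in ascorbic acid medium, dissociated, and passaged in serum with EGF and FGF2, with no LIF or inhibitor named for that medium. Each mESC line was a single clone from a blastocyst, and CPCCs were mixed cultures of several cell types. The cell type and the medium changed together, so their effects cannot be told apart.

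PDGF ligands are dimers that bind the receptor tyrosine kinases PDGFRα and PDGFRβ. PDGFRα marks early mesoderm and cardiac progenitors, whereas PDGFRβ is carried by pericytes, smooth muscle and other mesenchymal cells that surround vessels. VEGF ligands bind FLT1 and KDR on endothelial cells and their precursors, and KDR also marks mesoderm that gives rise to heart and vessels. KIT, the receptor of stem cell factor, marks blood, germ and some cardiac progenitor cells. All these receptors signal through shared adaptors to phosphoinositide 3-kinase, phospholipase C gamma and the RAS pathway.

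*Pdgfra*, *Kit* and *Kdr* lie next to each other on chromosome 5 and *Flt1* lies farther along that chromosome, yet these receptor genes differed in direction or in which cell type listed them. The 250 bases before the start of each are therefore shown, 5′ to 3′ on the strand of the gene, from RefSeq on GRCm38.p6. Capitals mark the GC box GGGCGG or its complement CCGCCC, the letters bound by SP1-like factors. The windows are chr5:75152001-75152250 (plus strand) for *Pdgfra*, chr5:75574737-75574986 (plus strand) for *Kit*, chr5:75978456-75978705 (minus strand) for *Kdr* and chr5:147726012-147726261 (minus strand) for *Flt1*.
Pdgfra: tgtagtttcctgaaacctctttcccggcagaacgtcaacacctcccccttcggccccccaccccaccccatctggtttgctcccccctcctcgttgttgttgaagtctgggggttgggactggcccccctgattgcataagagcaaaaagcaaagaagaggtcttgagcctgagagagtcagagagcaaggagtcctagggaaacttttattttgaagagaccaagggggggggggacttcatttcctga
Kit: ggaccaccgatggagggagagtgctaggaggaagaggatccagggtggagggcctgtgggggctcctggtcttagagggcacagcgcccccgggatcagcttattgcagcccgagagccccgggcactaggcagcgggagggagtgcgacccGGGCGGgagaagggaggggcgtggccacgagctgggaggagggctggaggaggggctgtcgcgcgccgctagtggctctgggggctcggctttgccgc
Kdr: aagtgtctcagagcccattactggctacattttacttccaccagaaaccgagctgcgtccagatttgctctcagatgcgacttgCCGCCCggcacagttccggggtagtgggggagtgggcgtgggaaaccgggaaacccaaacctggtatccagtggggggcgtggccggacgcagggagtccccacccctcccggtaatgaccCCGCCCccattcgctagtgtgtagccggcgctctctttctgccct
Flt1: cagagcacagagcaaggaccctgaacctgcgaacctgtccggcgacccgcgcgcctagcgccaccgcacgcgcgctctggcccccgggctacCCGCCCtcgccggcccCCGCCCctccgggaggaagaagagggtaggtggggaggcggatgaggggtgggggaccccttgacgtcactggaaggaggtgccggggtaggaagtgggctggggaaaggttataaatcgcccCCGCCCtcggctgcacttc

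The *Pdgfra* window held 0 GC boxes and 4 CpG dinucleotides, with a GC content of 54.4%. The *Kit* window held 1 GC box and 17 CpG dinucleotides (70.8% GC), that of *Kdr* 2 and 16 (61.6% GC), and that of *Flt1* 3 and 23 (70.4% GC). Only *Flt1* among these also held TATAAA, and none held CCAAT. The comparison used 32851 windows of this length before RefSeq gene starts, with chromosome 18 left out. Of these, 32.7% held a GC box, 33.8% CCAAT and 12.4% TATAAA on either strand. The medians were 6 CpG dinucleotides and 52.4% GC. The *Pdgfra* window was thus near both medians, and the other 3 windows lay above both. A match of letters is a description and not a binding site.

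Gene positions below are on GRCm38 as the tables give them. The libraries held 6442639 to 6907330 counts in mESCs (S01, S02 and S03) and 8468819 to 11436062 in CPCCs (S04, S05 and S06). Levels are given as CPM (counts scaled to equal library sizes) after TMM normalisation, and genes were called at a Benjamini-Hochberg adjusted p under 0.05 from edgeR's quasi-likelihood test over 12471 genes. The cell type labels were checked against lists of marker genes. For comparison, 31.7% of all genes tested were higher in CPCCs and 29.7% lower. Among the 16279 genes listed, 2518 were listed for CPCCs only and 760 for mESCs only. All 6 mESC markers fell, from a summed level of 2018 to 2569 CPM in mESCs to 104 to 169 CPM in CPCCs. Of 8 cardiac progenitor markers, 3 were tested and 1, *Tnnt2* (cardiac troponin T), rose. *Mef2c*, *Hand1*, *Hand2* and *Nkx2-5* were listed for CPCCs only, *Nkx2-5* with 0 counts in S05, and *Tbx5* was not listed for CPCCs. Their summed level was 3.97 to 4.68 CPM in mESCs and 137, 39.9 and 53.2 CPM in S04, S05 and S06, of which *Tnnt2* made up 103, 24.0 and 28.3 CPM. The cardiac label therefore rested on few of its markers in these libraries, and differed in strength between them.

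Both cell types listed 8 of the 10 genes, and all 8 were tested, while *Kdr* and *Flt1* were listed for CPCCs only. *Pdgfrb*, *Pdgfb* and *Pdgfc* were higher in CPCCs and *Kit* was lower, and *Pdgfra*, *Pdgfa*, *Vegfa* and *Vegfc* did not pass the threshold. Among all genes tested, 61.4% were called, 31.7% higher and 29.7% lower in CPCCs, so the share of the 8 that was called did not exceed that of all genes. The median log2 fold change was 0.96 over the 8 genes, 1.84 over the 10 with *Kdr* and *Flt1* at their bounds, and 0.03 over all genes tested. What set these genes apart from each other was size: 98.4% of all genes tested had a lower log2 fold change than *Pdgfb* and 98.1% a lower one than *Pdgfrb*, whereas 98.2% had a higher one than *Kit*. The plot of levels by library shows each gene.

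**Figure D1:**
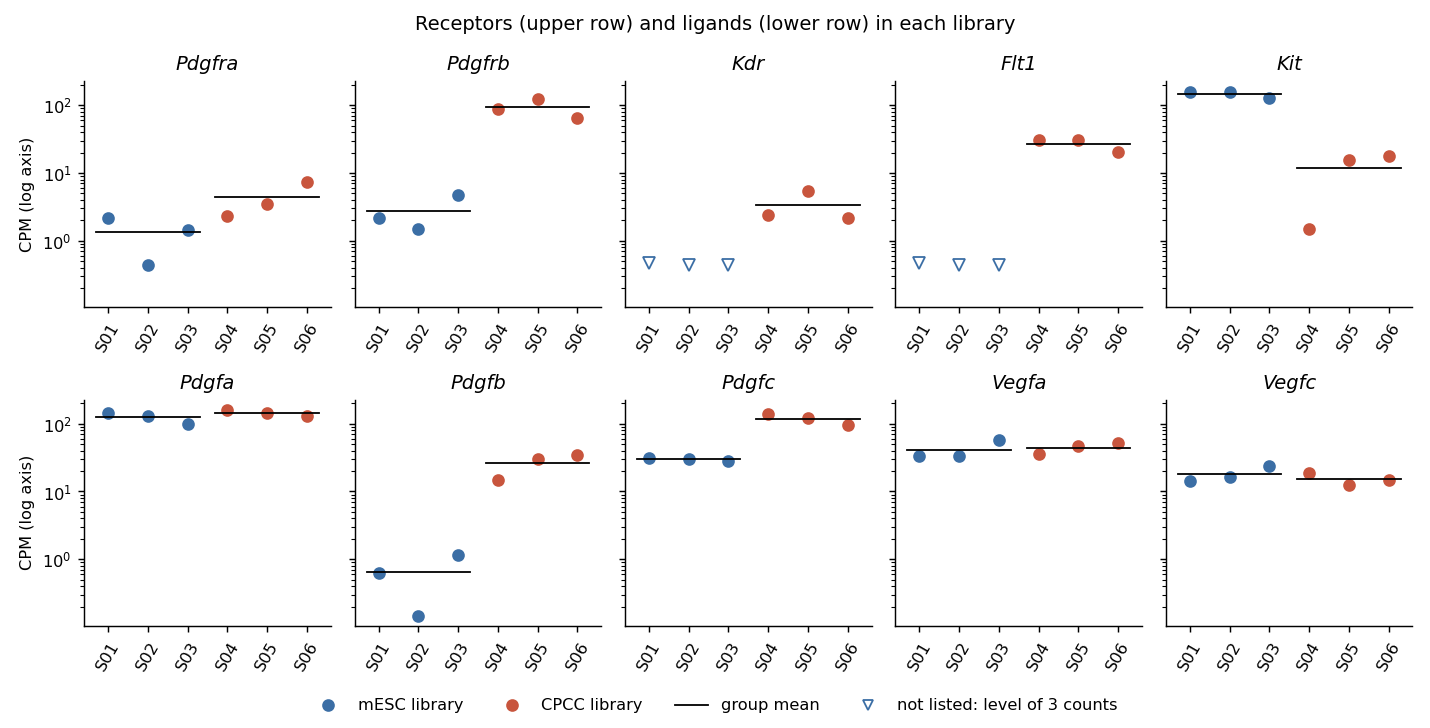
Level of each of the 10 genes in every library, in CPM after TMM normalisation on a log axis. Points are single libraries of mESCs (S01 to S03) and CPCCs (S04 to S06), lines are group means, and open triangles stand at 3 counts for *Kdr* and *Flt1*, which mESCs do not list. The CPCC points lie above all mESC points for *Pdgfrb*, *Pdgfb*, *Pdgfc* and *Pdgfra*, below them for *Kit*, and among them for the other genes listed in both cell types.

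The PDGF receptors parted in CPCCs, where *Pdgfrb* was clearly present and *Pdgfra* stayed low. *Pdgfrb* (chromosome 18, 61045150 to 61085068, plus strand) was at 2.16, 1.47 and 4.68 CPM in S01, S02 and S03, and at 88.9, 125 and 65.0 CPM in S04, S05 and S06. Every CPCC library lay far above every mESC library. The rise was 33.3-fold (95% interval 17.01 to 65.0), a log2 fold change of 5.06 (SE 0.43, edgeR adjusted p = 1.78e-05). With single libraries left out it ranged from 27.0-fold (without S02) to 50.9-fold (without S03). In bulk RNA, more cells that carry a gene and more of its RNA per cell cannot be told apart, here and for every gene below.

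*Pdgfra* (chromosome 5, 75152251 to 75198207, plus strand) was at 2.16, 0.442 and 1.46 CPM in the mESC libraries, from 14, 3 and 10 counts, and at 2.29, 3.52 and 7.45 CPM in the CPCC libraries, from 23, 29 and 65 counts. The groups did not overlap, but S04 was only just above S01. Non-overlap in this direction was found for 35.3% of all genes tested. The log2 fold change was 1.69 (SE 0.70, 95% interval 0.11 to 3.28) and the edgeR adjusted p of 0.0609 missed the threshold. DESeq2 gave 1.70 with an adjusted p of 0.0415, edgeR without S04 gave 2.02 with 0.0234, and edgeR without S06 gave 1.09 with 0.239. The call thus depended on the tool and on single libraries, at counts as low as these.

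Within each library, the log2 ratio of *Pdgfrb* to *Pdgfra* counts (0.5 added to each) does not depend on scaling between libraries. It was 0, 1.58 and 1.63 in mESCs and 5.25, 5.13 and 3.12 in CPCCs. All CPCC libraries were above all mESC libraries, with S06 the lowest of the CPCCs. The difference of the means was 3.43, and the two-sided exact permutation test gave p = 0.10, the smallest that 3 against 3 libraries allow. Without S01 the difference was 2.89, and without S06 it was 4.12. Known markers of mural cells (pericytes and smooth muscle), which carry PDGFRβ, moved with *Pdgfrb*. Of 10, all 6 that were tested rose, where 31.7% of all genes tested were higher, and 4 were listed for CPCCs only. The summed level of these markers went from 27.2 to 32.8 CPM in mESCs to 11577, 9187 and 6281 CPM in S04, S05 and S06. *Acta2* made up 6334, 4511 and 3072 CPM of it and *Tagln* 4382, 3945 and 2664 CPM. The pericyte markers *Cspg4* (NG2) and *Rgs5* differed in order, at 16.9, 61.0 and 38.4 CPM and at 48.4, 14.1 and 6.99 CPM. Of 10 markers of mesenchyme and fibroblasts, both that were tested rose, 7 were listed for CPCCs only and 1 for neither, with sums of 7.73 to 12.6 CPM in mESCs against 7365, 9288 and 6059 CPM in S04, S05 and S06. *Pdgfrb* was highest in S05, as were *Cspg4*, *Notch3* and the mesenchymal sum, whereas the other mural markers and the mural sum were highest in S04. The part of these cells in the result was not tested.

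Both VEGF receptors were listed for CPCCs only. *Flt1* (chromosome 5, 147562196 to 147725989, minus strand), or VEGFR1, which binds VEGF-A and placental growth factor tightly and signals weakly, was at 31.1, 30.3 and 20.2 CPM in S04, S05 and S06, a mean of 27.2 CPM (SD 6.10, n = 3). Against a floor of 3 counts in each mESC library it was at least 60.7-fold higher. *Kdr* (chromosome 5, 75933270 to 75978429, minus strand), or VEGFR2, the main signalling receptor of VEGF-A, was at 2.39, 5.46 and 2.18 CPM, from 24, 45 and 19 counts, and at least 7.46-fold higher. The log2 ratio of *Kdr* to *Flt1* was -3.68, -2.46 and -3.18 in the CPCC libraries, so *Kdr* counts were the lower in each, and no mESC ratio could be formed. With missing genes set to 0 or to 3 counts in the mESC libraries, both genes were called higher. The mESC values were then filled in and not measured, so this call adds no support of its own.

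Markers of the endothelium, the tissue these receptors are best known from, moved both ways. Of 10, *Pecam1* and *Egfl7* fell, *Tek* did not pass, *Cdh5*, *Emcn* and *Esam* were listed for CPCCs only, *Erg* for mESCs only, *Tie1* for neither, and *Sox17* and *Sox18* were too low to test. Their summed level was 132 to 148 CPM in mESCs and 47.2, 24.0 and 37.6 CPM in S04, S05 and S06. *Pecam1* and *Egfl7* together made up 123 to 138 CPM of it in mESCs. The other 8 markers summed to 3.71, 10.6 and 9.07 CPM in S01, S02 and S03 and to 34.8, 9.83 and 16.3 CPM in S04, S05 and S06, so these sums overlapped. *Cdh5* (VE-cadherin) was at 12.5, 1.33 and 1.61 CPM, highest in S04, and *Kdr* was highest in S05. *Flt1* was about equal in S04 and S05. Whether cells of another type carried these receptors was not tested.

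*Kit* (chromosome 5, 75574987 to 75656722, plus strand) was the only one of the 10 genes to fall. It was at 158, 157 and 126 CPM in S01, S02 and S03, and at 1.49, 15.7 and 18.0 CPM in S04, S05 and S06. Every CPCC library was far below every mESC library, and S04 was far below the other CPCC libraries. The level was 12.6-fold lower in CPCCs, a log2 fold change of -3.66 (SE 0.65, 95% interval -5.13 to -2.19, edgeR adjusted p = 0.00116). It was 8.63-fold lower without S04 and 17.4-fold lower without S06. Non-overlap in this direction was found for 34.5% of genes tested. The summed level of the mESC markers was 104, 141 and 169 CPM in S04, S05 and S06, the same order as *Kit*, with *Nanog* at 7.86, 25.6 and 42.5 CPM. *Sox2* (12.7, 42.6 and 39.2 CPM) and *Klf4* (74.3, 44.2 and 36.7 CPM) did not follow that order. Markers of the germ line, which also uses KIT, summed to 5.67, 13.0 and 22.0 CPM in these libraries and to 312 to 426 CPM in mESCs. Their part in the level of *Kit* was not tested. *Kitl*, the gene of the KIT ligand, went the other way, from 1.55, 0.442 and 1.61 CPM in mESCs to 36.4, 46.2 and 42.4 CPM in CPCCs, a log2 fold change of 5.10 (SE 0.39, edgeR adjusted p = 1.08e-05). Transcripts of receptor and ligand thus moved in opposite directions.

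Among the PDGF ligands, *Pdgfb* and *Pdgfc* rose and *Pdgfa* did not pass. *Pdgfb* (chromosome 15, 79995876 to 80014809, minus strand), whose product binds both receptors and recruits pericytes, was at 0.618, 0.147 and 1.17 CPM in the mESC libraries and at 14.8, 30.2 and 35.1 CPM in the CPCC libraries. The groups were far apart, with S04 the lowest of the CPCCs. It rose 40.3-fold (95% interval 16.2 to 100.4, log2 fold change 5.33, SE 0.58, edgeR adjusted p = 7.33e-05). With single libraries left out the rise ranged from 29.2-fold (without S02) to 67.8-fold (without S03). *Pdgfc* (chromosome 3, 81036416 to 81214032, plus strand), whose product is secreted latent and binds chiefly PDGFRα, was already present in mESCs at 30.9, 30.5 and 28.2 CPM, and was at 139.7, 122 and 95.1 CPM in CPCCs. Replicates were close in mESCs and spread more in CPCCs, without overlap. It rose 3.98-fold (95% interval 2.93 to 5.41, log2 fold change 1.99, SE 0.20, edgeR adjusted p = 4.08e-05).

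*Pdgfa* (chromosome 5, 138976972 to 138994954, minus strand), whose product binds PDGFRα, was at 145, 128 and 99.2 CPM in mESCs and at 160.2, 143 and 129.6 CPM in CPCCs. The groups overlapped. Its log2 fold change was 0.22 (95% interval -0.21 to 0.64, edgeR adjusted p = 0.337), so a change of up to 1.56-fold upward is within the interval. The log2 ratio of *Pdgfa* to *Pdgfc* counts was 2.23, 2.07 and 1.81 in mESCs and 0.20, 0.23 and 0.45 in CPCCs. It fell by 1.74 on average without overlap, with an exact two-sided permutation p of 0.10, the smallest possible. Transcripts of *Pdgfa* and *Pdgfc* were thus found in both cell types, in a different balance.

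The VEGF ligands *Vegfa* and *Vegfc* did not pass the threshold. *Vegfa* (chromosome 17, 46016993 to 46032378, minus strand), the main ligand of KDR and FLT1, was at 32.9, 33.4 and 57.2 CPM in mESCs and at 35.4, 46.6 and 51.4 CPM in CPCCs. S03 was the highest of all libraries and the groups overlapped. The log2 fold change was 0.11 (95% interval -0.49 to 0.71, edgeR adjusted p = 0.739), and its sign turned when S01, S02 or S06 was left out. *Vegfc* (chromosome 8, 54077532 to 54186455, plus strand), a ligand of FLT4 and of KDR, was at 14.2, 16.5 and 24.0 CPM in mESCs and at 18.7, 12.3 and 14.6 CPM in CPCCs, again with overlap. Its log2 fold change was -0.26 (95% interval -0.92 to 0.40, edgeR adjusted p = 0.454).

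Levels of different genes were compared per kb of exon (union of GENCODE M21 basic transcripts). In mESCs *Kit* led the receptors at 28.0 CPM per kb (range 24.0 to 30.0), followed by *Pdgfrb* at 0.51 and *Pdgfra* at 0.15. Of the 5 receptors chosen, *Pdgfrb* had the highest level in CPCCs at 16.97 CPM per kb (11.9 to 22.8). The range of the receptor-like *Pdgfrl* (6.55 to 13.2) overlapped that of *Pdgfrb*, and the co-receptor *Nrp1* stood at 193 CPM per kb (70.8 with the exons of all its transcripts). The co-receptor *Nrp2* was above *Pdgfrb* in mESCs, at 0.96 CPM per kb. In CPCCs it stood at 12.5, and its range (9.72 to 15.2) overlapped that of *Pdgfrb*. Among the 5, *Flt1* followed at 2.48 (1.84 to 2.84) and *Kit* at 2.23 (0.28 to 3.43), and the ranges of these 2 overlapped. *Kdr* at 0.56 and *Pdgfra* at 0.50 came last, also with overlap. Among the ligands, *Pdgfa* was ahead of the other members in both cell types, at 42.2 CPM per kb in mESCs and 49.1 in CPCCs. *Pdgfc* went from 8.48 to 33.8 CPM per kb. *Vegfa* stood at 11.7 CPM per kb in mESCs, against 12.6 in CPCCs. *Pdgfb*, near the bottom in mESCs at 0.22, reached 9.07 CPM per kb in CPCCs, where its range overlapped that of *Vegfa*.

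**Figure D2:**
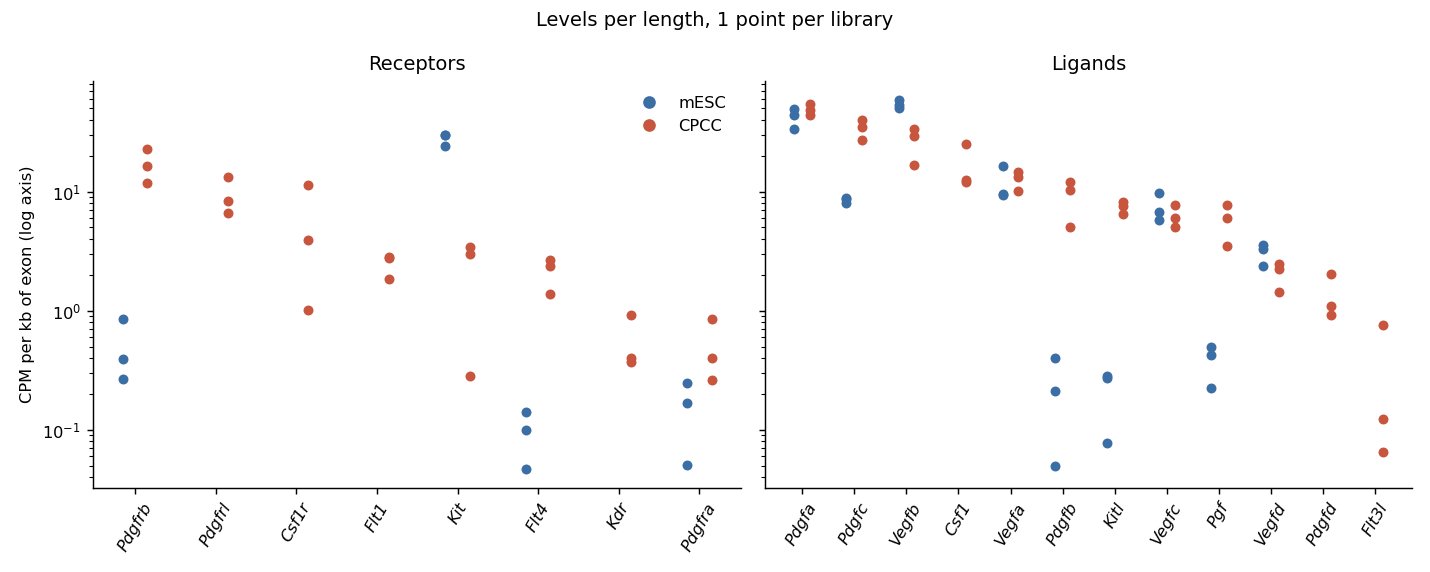
Level of receptors and ligands per kb of exon in mESCs and CPCCs, on a log axis. Points are single libraries in CPM per kb, with genes in the order of their CPCC mean and no point where a cell type does not list the gene. *Kit* has the highest receptor mean in mESCs and *Pdgfrb* in CPCCs, where its points overlap those of *Pdgfrl*, and *Pdgfa* is the highest PDGF ligand in both.

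Of the other 13 genes of these families, 7 were tested, 5 were higher, 1 was lower and 1 did not pass, 5 were listed for CPCCs only and *Flt3* for neither. The median log2 fold change of the 7 was 3.88, beside 0.03 over all genes tested, of which 31.7% were higher and 29.7% lower. *Nrp1* (neuropilin 1, a co-receptor of VEGF-A) was at 0.927, 1.77 and 1.46 CPM in the mESC libraries, against 983, 617 and 478 CPM in CPCCs. No mESC library came near a CPCC library. Its log2 fold change of 8.94 (SE 0.40, edgeR adjusted p = 1.33e-06) was exceeded by 0.0641% of the genes tested. *Nrp2*, a co-receptor of VEGF-C, rose from 10.5, 10.2 and 9.37 CPM to 131, 158 and 101 CPM (log2 fold change 3.70, SE 0.23, edgeR adjusted p = 3.67e-06). An annotated transcript on the opposite strand, *4930487H11Rik*, overlaps *Nrp2* by 3815 bases and held 5, 4 and 2 counts in CPCCs.

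*Flt4* (VEGFR3, the receptor of VEGF-C and VEGF-D) went from 0.618, 0.883 and 0.293 CPM to 16.5, 14.9 and 8.60 CPM, a log2 fold change of 4.45 (SE 0.52, edgeR adjusted p = 0.000106). *Pgf* (placental growth factor, an FLT1 ligand) went from 0.464, 1.03 and 0.878 CPM to 15.9, 7.28 and 12.5 CPM, a log2 fold change of 3.88 (SE 0.51, edgeR adjusted p = 0.000204). *Vegfb*, also an FLT1 ligand, fell from 68.8, 64.9 and 75.8 CPM to 21.4, 37.2 and 43.2 CPM, a log2 fold change of -1.04 (SE 0.26, edgeR adjusted p = 0.00695). These 2 FLT1 ligands thus went in opposite directions, while *Vegfa*, the third, did not pass the threshold. *Vegfd* was at 4.83 to 7.36 CPM in mESCs and 2.91 to 5.07 CPM in CPCCs, with overlap and a log2 fold change of -0.59 (edgeR adjusted p = 0.238).

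Of the genes listed for CPCCs only, *Pdgfrl*, a gene for a PDGF receptor-like protein without a kinase, was at 10.1, 20.4 and 12.8 CPM and at least 32.3-fold higher. *Pdgfd*, whose product binds PDGFRβ, was at 6.37, 2.91 and 3.44 CPM and at least 9.46-fold higher. *Csf1*, the ligand of the related receptor CSF1R, was at 119, 56.9 and 59.5 CPM and at least 175-fold higher. *Csf1r* itself was at 55.8, 19.2 and 4.93 CPM and at least 59.4-fold higher, with a wide spread between its libraries. The blood cell marker *Ptprc* (CD45) showed the same order at 15.6, 2.79 and 0.344 CPM. Of the 8 blood markers, *Runx1* rose and *Spi1* did not pass, *Ptprc*, *Tal1* and *Itga2b* were listed for CPCCs only, and *Gata1*, *Hbb-y* and *Hba-x* for neither. Their sums were 0.293 to 1.91 CPM in mESCs and 126, 95.4 and 72.7 CPM in S04, S05 and S06, of which *Runx1* made up 102, 89.5 and 69.1 CPM. The part of blood cells in the level of *Csf1r* was not tested. *Flt3l* was at 1.39, 0.121 and 0.229 CPM in CPCCs, under the floor of 3 counts in S05 and S06.

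**Figure D3:**
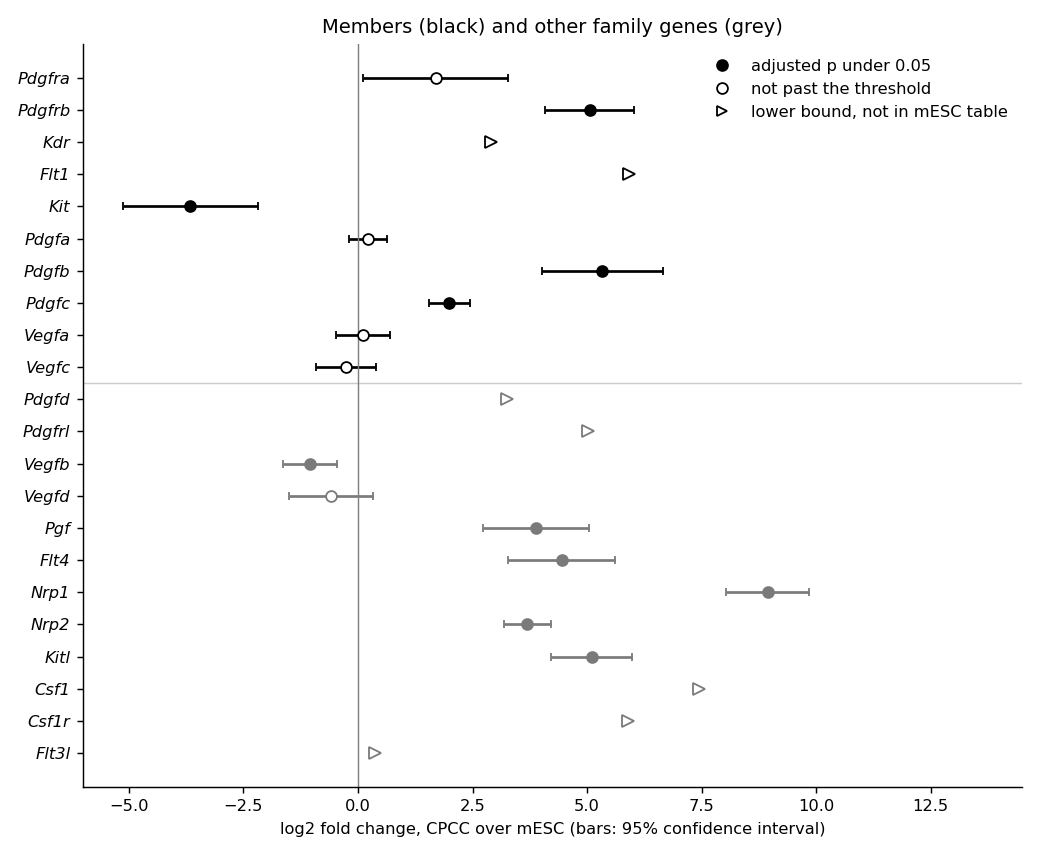
Log2 fold change of CPCCs over mESCs for the 10 genes (black) and the other family genes (grey). Circles are edgeR estimates with 95% confidence intervals, filled where the adjusted p was under 0.05, and triangles are lower bounds for genes not listed for mESCs. *Nrp1* lies farthest to the right at 8.94 and *Kit* farthest to the left at -3.66.

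Genes that work below these receptors were taken as a list of 30 adaptors, kinases and phosphatases, all of them tested. In CPCCs 15 were higher, 5 were lower and 10 did not pass, with a median log2 fold change of 0.65. Beside the 61.4% called and the median of 0.03 over all genes tested, the share called was near that of all genes and the median was higher. The largest rises were those of *Gab2*, a docking protein, from 0.732 to 2.47 CPM in mESCs to 23.9 to 45.4 CPM in CPCCs (log2 fold change 4.18, edgeR adjusted p = 6.57e-05), of *Plcg1* and of *Akt1*. *Plcg1*, the phospholipase C gamma that KDR and the PDGF receptors bind, went from 1.62 to 2.49 CPM to 15.1 to 22.0 CPM (log2 fold change 3.17, edgeR adjusted p = 6.55e-05). *Akt1*, a kinase below phosphoinositide 3-kinase, went from 11.6 to 14.2 CPM to 105 to 122 CPM (log2 fold change 3.14, edgeR adjusted p = 3.14e-06).

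The largest falls were those of *Plcg2*, *Ptpn6* and *Yes1*. *Plcg2*, the form of phospholipase C gamma best known from blood cells, went from 64.5 to 71.1 CPM to 13.0 to 20.5 CPM (log2 fold change -2.07, edgeR adjusted p = 6.03e-05), opposite to its paralog *Plcg1*. *Ptpn6* (SHP1), a phosphatase that dampens KIT, fell by 1.73 on the log2 scale (edgeR adjusted p = 0.000587), whereas *Ptpn11* (SHP2) rose by 1.03 (edgeR adjusted p = 0.00319). *Yes1*, a SRC family kinase, fell by 1.45 (edgeR adjusted p = 0.00151). The docking proteins also split, *Gab1* falling by 0.90 (edgeR adjusted p = 0.00208) while *Gab2* rose. *Ptpn11* and *Gab1* were named after their values were seen.

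Of 15 genes known to act on these ligands and receptors, 13 were tested, 5 were higher, 3 were lower and 5 did not pass, with a median log2 fold change of 0.49. Over all genes tested 31.7% were higher and 29.7% lower, so the share of these regulators called was near that of all genes. *Plat* (tissue plasminogen activator, which cleaves latent PDGF-C) was at 0.618, 0.589 and 0.732 CPM in mESCs and at 114, 143 and 96.9 CPM in CPCCs, without overlap. Its log2 fold change was 7.48 (SE 0.29, edgeR adjusted p = 9.64e-07). *Plau* (urokinase, which cleaves latent PDGF-D) was listed for CPCCs only, at 7.86, 4.004 and 5.96 CPM and at least 13.3-fold higher. *Pdgfc* and *Pdgfd* were thus higher in CPCCs together with the genes of the proteases that activate their products. *Furin*, a protease that processes PDGF and VEGF-C precursors, rose by 2.88 (edgeR adjusted p = 4.17e-05), *Lrp1*, a receptor that associates with PDGFRβ, by 3.67 (edgeR adjusted p = 5.74e-06) and *Adam10*, a sheddase, by 1.48 (edgeR adjusted p = 0.00193), all on the log2 scale.

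The hypoxia factors that activate *Vegfa* split. *Hif1a* was at 60.9, 68.3 and 118 CPM in mESCs and at 277, 137 and 139.8 CPM in CPCCs, a log2 fold change of 1.17 (SE 0.34, edgeR adjusted p = 0.0149). *Epas1* (HIF2α) fell from 124, 125 and 136 CPM to 22.6, 37.1 and 61.3 CPM, a log2 fold change of -1.67 (SE 0.32, edgeR adjusted p = 0.00172). *Mitf*, a factor that acts on *Kit* in mast cells and melanocytes, fell from 71.3, 52.0 and 88.1 CPM to 14.1, 4.13 and 4.93 CPM, a log2 fold change of -3.17 (SE 0.46, edgeR adjusted p = 0.000343). In CPCCs *Mitf* was highest in S04, where *Kit* was lowest. *Sp1*, the gene of a factor known to bind GC boxes, fell from 254 to 302 CPM in mESCs to 113 to 147 CPM in CPCCs. Its log2 fold change was -1.05 (SE 0.17, edgeR adjusted p = 0.000608). Binding to the windows printed above was not tested. *Etv2*, an activator of *Kdr* in mesoderm, was listed for mESCs only, at 1.39, 4.86 and 2.20 CPM.

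On chromosome 5 the end of *Pdgfra* lies 377 kb from the start of *Kit*, and *Kit* lies 277 kb from *Kdr*. Within 1 Mb of this stretch 19 genes were listed, 16 of them tested. Of these, 3 were higher, 5 were lower and 8 did not pass, 2 were listed for mESCs only and *Kdr* for CPCCs only. As 61.4% of all genes tested were called, the share called here was not above that of all genes. Apart from *Kit*, the falls were those of *Paics* (-1.98, edgeR adjusted p = 4.35e-05) and *Ppat* (-1.61, edgeR adjusted p = 8.75e-05), neighbours that encode purine synthesis enzymes, and of *Scfd2* (-1.11) and *Fip1l1* (-0.58). The rises were those of *C530008M17Rik* (3.40), *Rasl11b* (2.65) and *Srd5a3* (0.47), on the log2 scale. *Chic2*, the tested gene nearest *Pdgfra* on its other side, did not pass (0.15), nor did *Lnx1* (0.59), *Tmem165* (0.39), *Clock* (0.20), *Exoc1* (-0.28), *Cep135* (-0.42) or *Aasdh* (-0.52). *Gsx2* held 13, 0 and 1 counts in S01, S02 and S03. S02 and S03 were under the floor of 3 counts, so no fall of *Gsx2* was shown. *Pdcl2* held 1, 19 and 22 counts there, with S01 under that floor. Its mean gave a bound of 6.13-fold lower in CPCCs. *Kit* thus fell while neither *Pdgfra* nor *Kdr* beside it was lower in CPCCs.

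**Figure D4:**
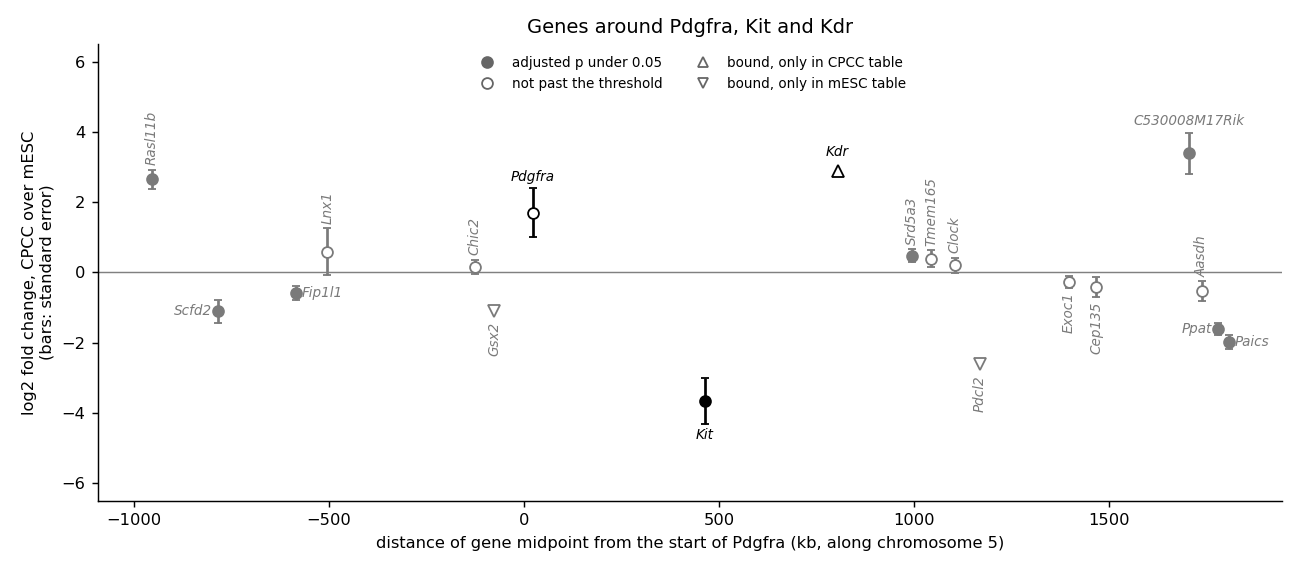
Log2 fold change of CPCCs over mESCs for the genes around *Pdgfra*, *Kit* and *Kdr*, against the distance of each gene's midpoint from the start of *Pdgfra* in kb. Circles are edgeR estimates with standard errors, filled where the adjusted p was under 0.05. Triangles are bounds for genes listed for 1 cell type only, and that of *Gsx2* rests on S01 alone. *Kit* (-3.66) lies between *Pdgfra* (1.69, not past the threshold) and *Kdr*, in a stretch where other genes lie on both sides of 0.

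*Kdr* and *Flt1* were not tested, so genes of like pattern were sought for *Pdgfrb*, *Kit* and *Pdgfra*. The tested genes most like each were found by the root mean square difference of centred log2 CPM over the 6 libraries. For *Pdgfrb* these were *Tubb4a* (0.16) and *Fzd6* (0.22), with 57 genes within 0.5. For *Kit* they were *Hsd17b14* (0.20) and *Tgm1* (0.23), with 25 genes within 0.5. *Hsd17b14* was at 261, 291 and 276 CPM in mESCs and at 2.78, 23.8 and 40.6 CPM in CPCCs, and so had the low S04 value as well. For *Pdgfra* they were *Ramp2* (0.24) and *Cntln* (0.30), with 36 genes within 0.5. *Ramp2* held 0.442 to 1.55 CPM in mESCs and 1.59 to 5.05 CPM in CPCCs.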

How the data were processed

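Polyadenylated RNA of 3 mESC and 3 CPCC cultures was made into libraries with the SMART-Seq v4 kit. The authors deposited 1 table per cell type of expected counts (estimated counts of reads) per gene, not normalised and not split by allele, in which every gene held at least 10 counts over its 3 libraries and 17.9% to 21.5% of values were not whole. The submitters' processing notes name STAR 2.7 and mm10. The counting tool and the use of strand are not given in the sources used here, so antisense reads cannot be told apart. Tables were assigned to cell types by their names, 0 columns were left unmapped, and the columns carry no replicate numbers. The study states 1 clone per replicate, but the columns show no clone.

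Counts were rounded to whole numbers. The tables share 13001 of their 16279 genes. Of the shared genes, filterByExpr removed 530 and the rest were tested with edgeR 4.0.16 in R 4.3.3 (quasi-likelihood test, TMM, Benjamini-Hochberg adjustment over all 12471 genes, threshold 0.05). A gene missing from 1 table was given as a bound against 3 counts per library (0.298 to 0.464 CPM). The bound is a ratio of group means and allows for neither counting error nor spread between libraries. Ratios were tested by exact permutation. Promoters came from RefSeq (GRCm38.p6) with chromosome 18, which carries *Pdgfrb* and *Csf1r*, left out. They covered 8 of the 10 genes and 19 of 23 with the other family genes. Exon lengths came from GENCODE M21. Figures were drawn with matplotlib 3.10.9.

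The genes and lists were chosen with earlier results of these data known. Named were all 10 genes, the other family genes, the 3 largest rises and falls among the signalling genes, the called regulators, the chromosome 5 neighbours, the nearest patterns and up to 3 markers per list, and further markers were named after their values were seen. On simulated counts for the CPCC and mESC comparison with 13001 genes, edgeR recovered 24 of 68 genes changed 2-fold, 61 of 72 changed 4-fold and 60 of 60 changed 8-fold, and called 16 unchanged genes. The changed genes were drawn only from those above a set mean level. Recovery at lower levels, such as that of *Pdgfra*, was not measured. The alternatives were DESeq2 1.42.0, upper-quartile normalisation, library totals without TMM, no filter on low counts, a stricter filter (10 counts or more in each library), genes in either table with missing values at 0 or 3 counts, and each library left out. The allele-specific, single-cell and chromatin data of the study were not analysed here.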

Additional observations from a re-analysis of the deposited data

How the results depend on the processing

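No paired analysis was possible because the columns carry no replicate numbers. The calls of *Pdgfrb*, *Pdgfb*, *Pdgfc*, *Kit* and the 6 called family genes held in every setting in which each was tested. With missing genes set to 0 counts, 6 of the 10 genes and 9 family genes were higher, against 3 and 5 in the comparison as reported, since *Kdr*, *Flt1*, *Csf1*, *Csf1r*, *Pdgfd* and *Pdgfrl* then entered and *Pdgfra* passed (1.72, edgeR adjusted p = 0.0499). With 3 counts the numbers were 5 and 9. The mESC values of the genes that entered this way were filled in and not measured. Missing genes at 0 counts also moved the median of all genes from 0.03 to 0.17. With at least 10 counts in every sample, 1 family gene, *Nrp2*, was higher, as fewer were tested. With 1 library left out, 3 to 4 of the 10 genes were higher and 1 lower, 5 family genes higher and 1 lower, 14 to 17 signalling genes higher and 5 lower, and 6536 to 7895 of all genes were called, against 7656. *Cblb* was lost without S02 or S03 and *Stat3* without S01. The log2 fold change of *Vegfa* ranged from -0.030 to 0.42 in these fits, and was -0.030, -0.017 and -0.0015 without S01, S02 and S06, and the cause was not tested. That of *Pdgfra* ranged from 1.09 to 2.19. The ratio differences ranged from 2.89 to 4.12 for *Pdgfrb* to *Pdgfra* and from -1.86 to -1.65 for *Pdgfa* to *Pdgfc*, and the *Kdr* to *Flt1* ratio gave no difference in any setting, as mESCs list neither gene. Depth limits *Pdgfra*, *Kdr* and *Flt3l*, which held at most 65, 45 and 14 counts in a library.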

Other observations

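Markers of other early lineages that carry these receptors were also measured. *Pdgfra* is known from the primitive endoderm, and of 8 markers of that lineage 5 were tested, 4 rose, 1 (*Sox7*) did not pass, 2 were listed for CPCCs only and 1 was too low to test. Their summed level was 54.9 to 58.2 CPM in mESCs and 325, 316 and 296 CPM in S04, S05 and S06. *Foxa2* rose by 4.94 on the log2 scale (edgeR adjusted p = 0.00132), with 5.97, 47.1 and 16.97 CPM in S04, S05 and S06. *Gata6* rose by 3.17 (edgeR adjusted p = 0.0113), with 40.1, 7.52 and 7.34 CPM there. The leading library thus differed between these endoderm genes.

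*Kdr* and *Pdgfra* are also known from early mesoderm. Of 7 markers of that stage, both that were tested fell in CPCCs. The log2 fold change was -3.16 for *T* (brachyury, edgeR adjusted p = 0.000192) and -1.80 for *Eomes* (edgeR adjusted p = 0.00257). *Mixl1* was listed for mESCs only, *Foxf1* for CPCCs only at 9.05, 7.16 and 3.90 CPM, and *Mesp1*, *Tbx6* and *Msgn1* for neither. The summed level was 76.2 to 91.8 CPM in mESCs and 16.4 to 20.4 CPM in CPCCs. Of 6 germ line markers, all 5 that were tested fell and *Mael* was listed for mESCs only.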
